A study of Mus musculus with 4 samples.

Results

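The regions described here are the m6A peaks that lay in solute carrier (SLC) genes of mouse white adipose tissue. A peak was taken when its midpoint fell in the mm10 span of a protein-coding gene whose symbol is Slc, a family number, a letter and a member number, and 2 genes were left out. The rule took 341 of 22860 peaks in the vehicle list and 450 of 31856 in the entacapone list, 791 of 54716 in all, and it covered 362 genes of 50 families. The rule used the position of a peak and no measured value. The tissue was inguinal fat of male C57BL/6 mice of 23 weeks, made obese with a high-fat diet and given vehicle or entacapone. Each treatment had 1 input library and 1 m6A immunoprecipitate (IP), 4 libraries in all, and the labels do not say how many animals a library came from. The sources used here give neither the dose nor the length of treatment. With 1 library a treatment there was no replicate and no test, so each difference lies between 2 libraries.

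SLC proteins are membrane transporters that move amino acids, sugars, fatty acids, ions, metals, vitamins and nucleotides across the plasma membrane and the membranes of organelles, and the family number broadly follows the substrate. In fat cells they bring in fuel such as glucose and fatty acids, exchange lactate and ketone bodies, and feed the mitochondria with substrates and cofactors. N6-methyladenosine (m6A) is a modified base of messenger RNA, written by a methyltransferase complex mostly in the motif GGAC and its relatives, often near stop codons and in 3′ untranslated regions, and it can be removed by demethylases that include FTO. Entacapone is a drug of Parkinson's disease that blocks catechol-O-methyltransferase, and it has also been described as an FTO inhibitor. In the assay, fragmented mRNA was pulled down with an antibody against m6A, and a peak is a stretch where IP reads stood above input reads. The number attached to each peak was unlabelled in the deposited lists and is read as the authors' fold enrichment of IP over input. Its commonest values run in equal steps, such as 10 values from 3.28 in steps of 0.202 (vehicle) and 8 values from 3.42 in steps of 0.342 (entacapone), as values on a linear scale of reads would and logarithms would not.

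The sequences printed come from SLC peaks that reached into RefSeq's start-site windows (GRCm38.p6, from 250 bases before to 50 bases after a start, of which a gene can have several), and they are shown because start-site peaks held several of the highest folds among entacapone-only peaks. Each is a stretch of at most 30 bases on the gene's own strand, 5′ to 3′, with the motif GGAC in capitals where it occurs. The first 4 hold the motif and the other 4 do not. Further SLC peaks reached into such windows and are not printed, and the bases read from them held no GGAC. The printed stretches therefore do not show how often the motif occurs. In Slc43a2 an overlapping entacapone peak, chr11:75531503-75531574, ends before the printed stretch and holds no GGAC on the gene strand.
Slc41a2, entacapone-only peak, chr10:83337781-83337810, minus strand: cagcaaggaacgcgagctGGACccccgacg
Slc4a8, vehicle-only peak, chr15:100815798-100815827, plus strand: tttggaGGACatccagctacccacatacca
Slc43a2, vehicle peak with an overlapping entacapone peak, chr11:75531681-75531710, plus strand: ctggaaataaaggGGACagaaaaggcgccg
Slc24a3, peak of both lists, chr2:145167775-145167804, plus strand: gcgagcaggagagGGACcccgagcgcaggg
Slc23a2, entacapone-only peak, chr2:132145059-132145083, minus strand: ccaaggcggcggcaggcactgcggc
Slc25a42, entacapone-only peak, chr8:70212232-70212256, minus strand: gcggcagcagcggcgacgcgtccgg
Slc2a1, entacapone-only peak, chr4:119108841-119108870, plus strand: tacggggtcttaagtgcgtcagggcgtgga
Slc35b4, vehicle peak with an overlapping entacapone peak, chr6:34176915-34176944, minus strand: gcggtggtgatgttgcgcgcggattttcta

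Few SLC peaks lay wholly inside such a window, 4 of the vehicle list and 8 of the entacapone list. On the gene strand GGAC occurred in 1 of those 4 (Slc4a8) and in 1 of those 8 (Slc41a2). Over all protein-coding genes it occurred in 78 of 192 such vehicle peaks (40.6%) and in 126 of 303 such entacapone peaks (41.6%). The motif is short, and 65.6% of all 32851 windows of 300 bases and 73.8% of the 355 SLC windows held it on the gene strand. The peaks were shorter than the windows, so their shares cannot be compared. Median lengths were 69.5 (vehicle) and 75 (entacapone) bases in SLC genes, and 78.5 and 81 over all protein-coding genes. The letters describe these stretches and mark no methylated base. The lists do not state whether positions count from 0 or 1, so a printed stretch could be off by 1 base.

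SLC genes carried peaks in both libraries, and the entacapone list, which was longer as a whole, had more of them. The ratio of SLC peaks, entacapone over vehicle, was 1.32 (95% exact conditional interval 1.14 to 1.52), beside 1.38 over all protein-coding genes and 1.39 over all peaks. The ratio for SLC peaks was thus near that of the whole list, and SLC genes held 1.66% of the vehicle and 1.59% of the entacapone peaks of protein-coding genes. With both lists cut to their 22860 peaks of highest fold the ratio of SLC peaks was 0.988 (0.848 to 1.15). That cut makes the lists equally long, so it cannot show what the direction depends on. With both lists kept to a fold of 4 or more the ratio was 1.11 (0.859 to 1.43). All intervals given here are exact, at 95%, and cover counting error only, because reads without molecular identifiers are not independent molecules and peaks of 1 gene are not independent of each other. The input libraries held 24548212 counts (vehicle) and 33164576 counts (entacapone), a ratio of 1.35, and the depths of the IP libraries are unknown. The part of depth in the number of peaks was not tested.

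Most vehicle SLC peaks in the full lists overlapped a peak of the entacapone list. An overlap of at least 1 bp counted as found. In the vehicle list 260 SLC peaks had such a partner among the entacapone peaks, and 81 (23.8%, interval 19.3 to 28.6) were vehicle-only, against 20.5% over all protein-coding genes. In the entacapone list 258 had a partner among the vehicle peaks, and 192 (42.7%, interval 38.0 to 47.4) were entacapone-only, against 43.0%. Both shares of SLC peaks lay near their background. The vehicle-only share was 56.3% with both lists kept to a fold of 4 or more and 40.2% with both cut to equal length. Under these cuts a vehicle peak whose entacapone partner was dropped counted as vehicle-only. The share was 44.0% when an overlap of 50% of both peaks was asked for. Among peaks without overlap the ratio of entacapone to vehicle was 2.37 (1.82 to 3.11) in SLC genes and 2.89 in all protein-coding genes.

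By gene, 170 of 362 SLC genes (47.0%, interval 41.7 to 52.2) had a vehicle peak, against 40.2% of protein-coding genes. An entacapone peak was present in 192 of 362 (53.0%, interval 47.8 to 58.3), against 49.0%. SLC spans were longer than those of protein-coding genes, with a median of 28619 bp against 17146 bp, and longer genes in general held peaks more often. Among SLC genes of up to 19885 bp, 50.4% had a vehicle peak and 48.8% an entacapone peak, against 34.3% and 43.3% of protein-coding genes in that range of length. Among those between 19885 and 41791 bp the SLC shares were 42.5% and 52.5%, against 47.9% and 59.3%. Among the longest they were 47.9% and 57.9%, against 58.1% and 67.4%. The intervals of the 3 groups of SLC genes overlapped in each list, while the shares of all protein-coding genes were higher in each longer group.

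Peaks were in both lists for 161 SLC genes, in the entacapone list alone for 31, in the vehicle list alone for 9, and in neither for 161. Of the 201 genes with a peak, those of the entacapone list alone were 15.4% (interval 10.7 to 21.2), against 21.9% of protein-coding genes with a peak. Those of the vehicle list alone were 4.48%, against 4.76%. With both lists cut to equal length, these numbers of genes were 26 (entacapone) and 28 (vehicle). With both lists kept to a fold of 4 or more they were 36 and 28, where peaks of the other list below the cut did not count. More entacapone than vehicle peaks were counted in 97 SLC genes (48.3%, against 55.3% of protein-coding genes), equal numbers in 73 (36.3%, against 29.3%), and fewer in 31 (15.4%, against 15.3%). In 52 of the 161 genes of both lists every peak overlapped, and in 15 no peak did. The same was not counted over all protein-coding genes, so these numbers cannot be read as particular to SLC genes. An SLC gene with a vehicle peak held 2.01 of them on average, against 2.34 over all protein-coding genes. One with an entacapone peak held 2.34, against 2.64.

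**Figure D1:**
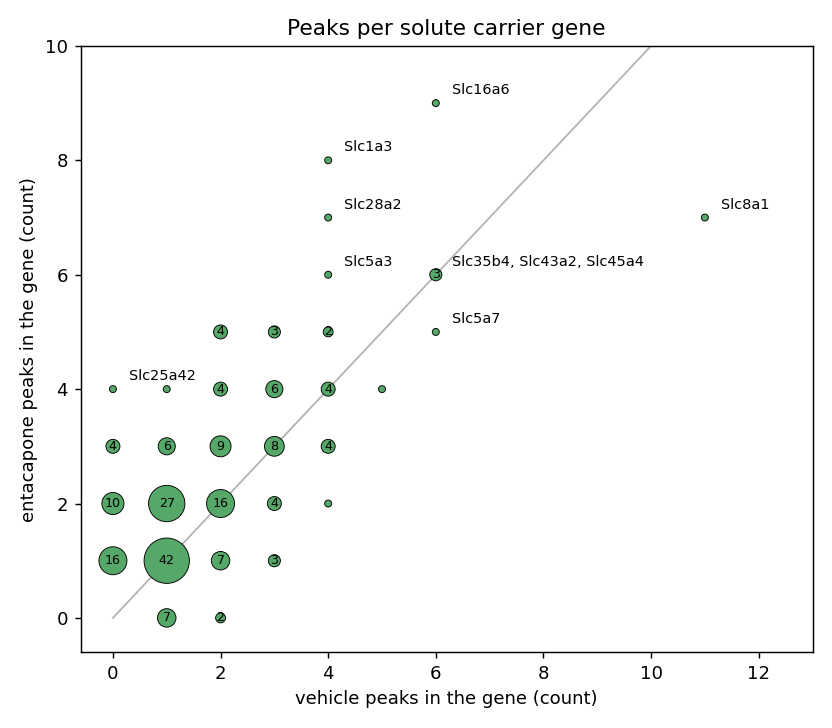
Number of vehicle peaks (horizontal axis, count) and entacapone peaks (vertical axis, count) in each of the 201 SLC genes with a peak. The area of a point follows the number of genes, printed inside where above 1, and the line marks equal numbers; 97 genes lie above it and 31 below it, with Slc8a1 farthest below.

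The SLC genes with the most peaks over both lists came from many families, and the 10th place was a tie at 9 peaks between Slc35c1, Slc22a23 and Slc25a37. Slc8a1, the plasma membrane sodium-calcium exchanger NCX1, had the most, with 11 vehicle and 7 entacapone peaks, and 7 of the 11 were vehicle-only. Slc16a6, a monocarboxylate transporter that carries ketone bodies, had 6 vehicle and 9 entacapone peaks, of which 5 were entacapone-only. Slc1a3, the glutamate transporter GLAST, had 4 vehicle peaks, all overlapped, and 8 entacapone peaks, of which 4 were entacapone-only. These 3 genes show the range from fewer to more peaks in the entacapone list.

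Slc28a2, a sodium-coupled nucleoside transporter, had 4 vehicle and 7 entacapone peaks. Slc5a3, the myo-inositol transporter, had 4 and 6, all of them also inside the span of Mrps6, a mitochondrial ribosomal protein gene. Slc35c1, the Golgi GDP-fucose transporter, had 4 and 5, and Slc5a7, the high-affinity choline transporter, had 6 and 5. Equal numbers were found in 3 genes. Slc43a2, a system L amino acid transporter, Slc45a4, placed in a family of sugar transporters, and Slc35b4, a nucleotide sugar transporter of the Golgi and endoplasmic reticulum, each had 6 and 6. In Slc45a4 and Slc35b4 every peak overlapped a peak of the other list.

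**Figure D2:**
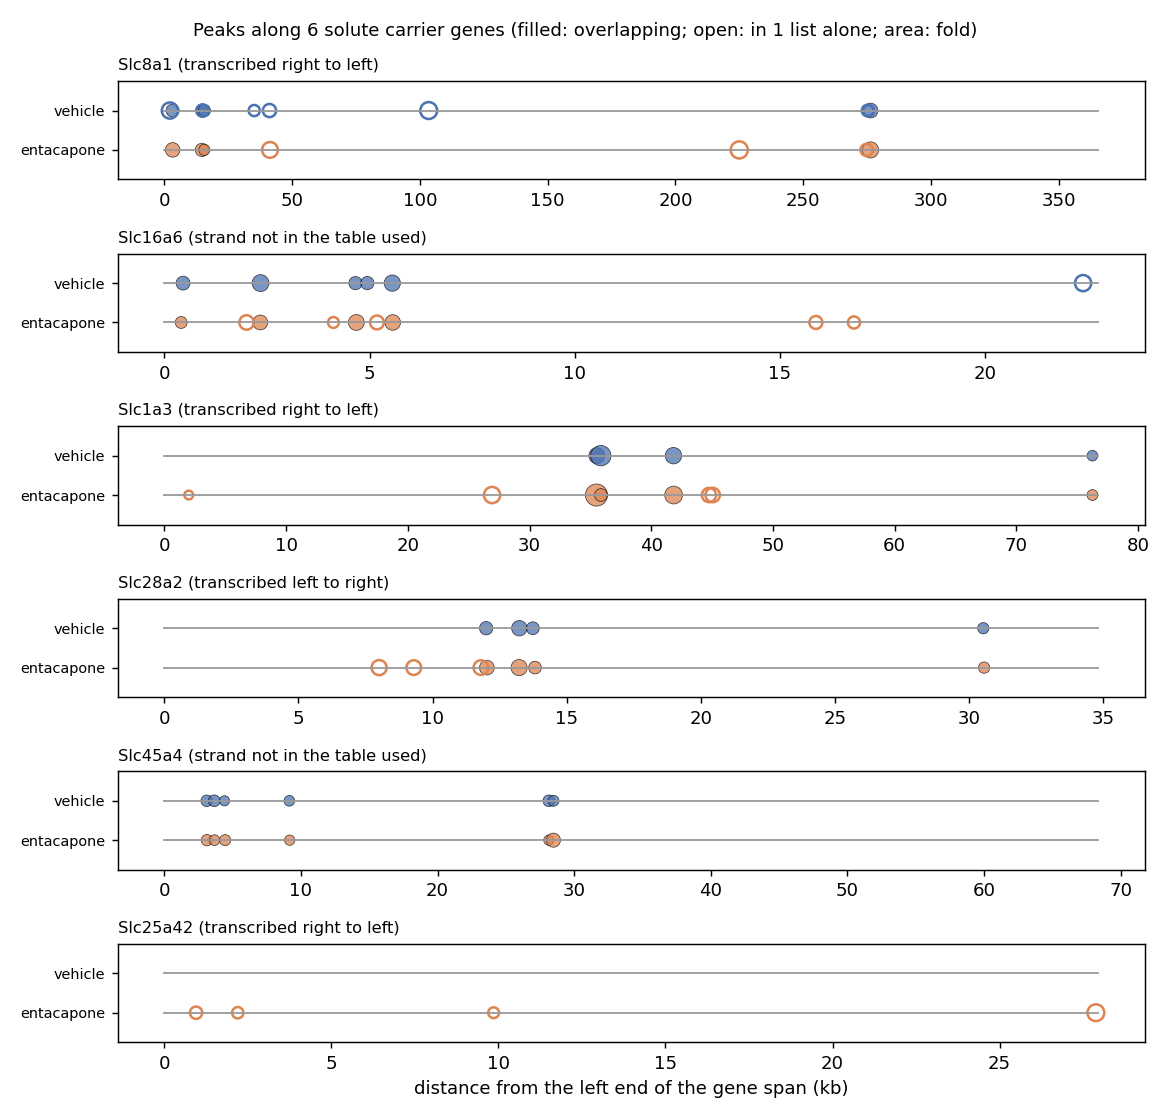
Peaks along 6 SLC genes, plotted by the distance of the midpoint from the left end of the gene span (kb) in the vehicle and entacapone lists. Filled points overlap a peak of the other list, open points do not, and the area follows the authors' fold. The peaks of Slc45a4 are filled in both lists, and Slc25a42 has 4 open entacapone peaks and no vehicle peak.

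Along Slc8a1, peaks lay in a few clusters, most of them far from the gene start. The overlapping peaks with the highest fold in this gene lay at chr17:81649391-81649526 in the vehicle list (fold 4.47) and chr17:81649383-81649517 in the entacapone list (fold 5.34). Vehicle-only and entacapone-only peaks could lie close together, as at 81414160 to 81414370 (vehicle, fold 3.56) and 81414437 to 81414486 (entacapone, fold 5.07). In Slc16a6 the highest fold in the vehicle list was 5.85, at chr11:109453124-109453276, and an entacapone peak overlapped it at fold 4.53. A wide entacapone peak of Slc16a6, at 109455180 to 109455887, covered a pair of separate vehicle peaks, so 1 peak of a list can stand beside 2 of the other. In Slc1a3 the entacapone peak of highest fold (10.0, chr15:8669435-8669813) overlapped a vehicle peak of fold 5.17, while the vehicle peak of highest fold (8.45, 8669951 to 8670013) overlapped an entacapone peak of fold 3.35. Folds were set within a list by the authors, so pairs of folds from both lists are given side by side and not compared.

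Families differed in how many peaks they held. A peak was found in 45 of the 50 families, in 44 for the vehicle list. Families 32, 34, 47, 48 and 50, small families of vesicular inhibitory amino acid, type II phosphate, multidrug, heme and sugar efflux transporters, had none. Over the 50 families, 31 had more entacapone than vehicle peaks, 11 had equal numbers and 8 had fewer. The 17 families with 10 or more peaks in a list held 244 of the 341 vehicle and 322 of the 450 entacapone peaks, and in 13 of those 17 the entacapone number was higher.

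**Figure D3:**
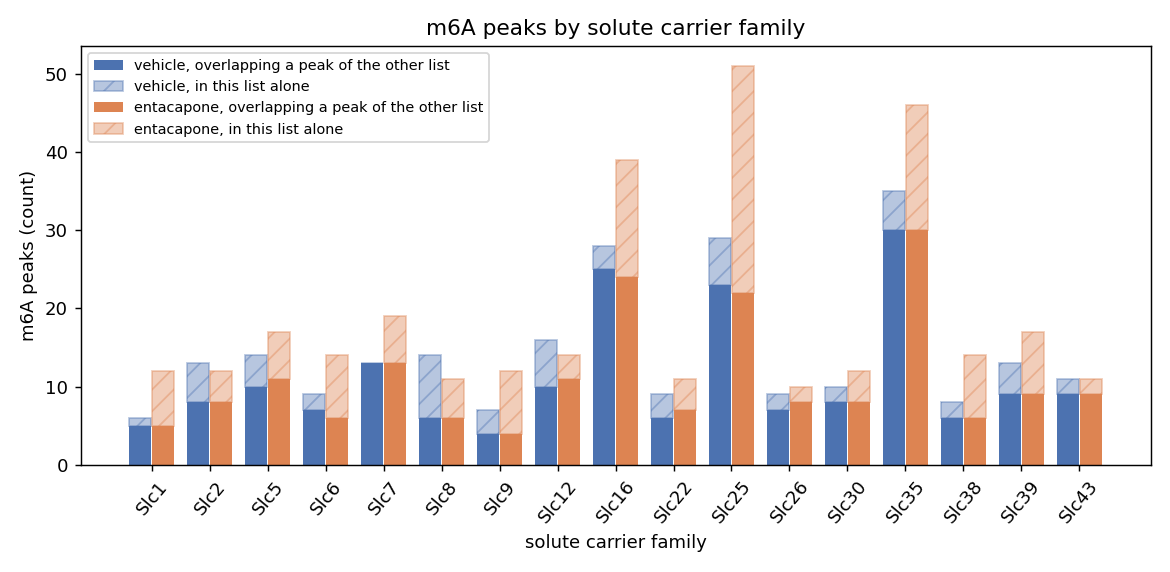
Vehicle and entacapone peaks (count) in the 17 SLC families with 10 or more peaks in a list. Solid bars are peaks that overlap a peak of the other list and hatched bars those that do not; the hatched part is largest in the entacapone bar of family 25, at 29 of 51 peaks.

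The mitochondrial carriers, family 25, move metabolites, nucleotides and cofactors across the inner mitochondrial membrane, and they were the family with the most genes and the largest difference in number of peaks. By ratio, smaller families such as 1 (6 and 12 peaks) and 20 (3 and 7) stood higher. Their 47 genes held 29 vehicle and 51 entacapone peaks, a ratio of 1.76 (interval 1.09 to 2.88) beside 1.38 for all protein-coding genes, which lies inside the interval. Of the 51 entacapone peaks 29 were entacapone-only (56.9%), and of the 29 vehicle peaks 6 were vehicle-only (20.7%), against 43.0% and 20.5% over all protein-coding genes. Families 1, 6, 9 and 38 had entacapone-only shares as high or higher, at 7 of 12, 8 of 14, 8 of 12 and 8 of 14 peaks. Genes with a peak numbered 16 of the 47 in the vehicle list (34.0%) and 22 in the entacapone list (46.8%). Over all protein-coding genes the shares were 40.2% and 49.0%. Of all protein-coding genes with a peak, 21.9% had peaks in the entacapone list alone. Among the 24 carriers with a peak, 8 did. They included Slc25a42, which imports coenzyme A (4 peaks), Slc25a32, which carries folate and flavin cofactors (3), and Slc25a27, the uncoupling protein UCP4 (3). Slc25a26, which imports the methyl donor S-adenosylmethionine, and Slc25a35, an orphan carrier, had 2 each, and Slc25a15 (ornithine) and Slc25a25 (ATP-Mg and phosphate) had 1 each.

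In the opposite direction, Slc25a23, a calcium-regulated ATP-Mg and phosphate carrier, had 2 vehicle peaks and no entacapone peak, and Slc25a34 had 1 and none. The carriers with the most peaks did not share a direction. Slc25a37, the iron importer mitoferrin, had 5 vehicle and 4 entacapone peaks. Slc25a46, a protein of the outer mitochondrial membrane, had 4 and 4. Slc25a44, which carries branched-chain amino acids, had 2 and 5. Slc25a42 peaks ran from fold 2.39 to 5.78, and the highest lay 58 bp from the gene start.

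Amino acid, peptide and neurotransmitter carriers were the largest class, with 80 genes. They held 66 vehicle and 93 entacapone peaks (ratio 1.41, interval 1.02 to 1.96), in 38 and 45 genes. Those genes were 47.5% and 56.25%, against 40.2% and 49.0% of protein-coding genes. No gene of the class had peaks in the vehicle list alone, against 4.76% of protein-coding genes with a peak. The classes of metal, vitamin and phosphate carriers had no such gene either. Over all protein-coding genes 20.5% of vehicle peaks were vehicle-only. Family 7, the cationic and heteromeric amino acid transporters, had 13 vehicle peaks, all overlapped, and 19 entacapone peaks. Its members with the most peaks, Slc7a1 (the arginine transporter CAT1, 4 and 4) and Slc7a8 (the light chain LAT2, 3 and 3), had overlapping peaks throughout, and Slc7a11, the cystine importer, and Slc7a7 had peaks in the entacapone list alone. Family 1 had 6 and 12 peaks, mostly in Slc1a3, and Slc1a4, a neutral amino acid transporter, had 1 and 2.

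Family 6 had 9 and 14 peaks, among them 1 and 3 in Slc6a8, the creatine transporter, and 1 and 3 in Slc6a9, a glycine transporter. Family 38 had 8 and 14. In that family Slc38a9, the lysosomal arginine sensor, had 2 and 3, Slc38a6 had 3 and 3, and Slc38a10 had 3 entacapone peaks alone, at folds of 1.61 to 1.96. Family 43 had 11 and 11, with Slc43a2 at 6 and 6 and Slc43a1 at 4 and 4.

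Monocarboxylate, fatty acid and organic ion carriers had a peak in 18 (vehicle) and 19 (entacapone) of 53 genes. Those genes were 34.0% and 35.8%, against 40.2% and 49.0% of protein-coding genes. The class held 44 vehicle and 59 entacapone peaks. Family 16 accounted for 28 and 39 of them, in 10 genes of each list, and Slc16a1, the lactate transporter MCT1, had 3 and 4. Family 22, organic cation, anion and carnitine carriers, had 9 and 11, of which Slc22a23 had 4 and 5 and Slc22a15 had 2 and 2. Slc10a6, a transporter of sulfated steroids, had 2 entacapone peaks alone.

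Sugar carriers were the class with fewer genes in the entacapone list. They had 34 and 37 peaks, in 14 (vehicle) and 13 (entacapone) of 27 genes. Those genes were 51.9% and 48.1%, against 40.2% and 49.0% of protein-coding genes. Classes follow the family number, so this one also holds carriers of other solutes, such as the choline transporter Slc5a7 (6 and 5 peaks). In family 2, the facilitative glucose transporters, the counts were 13 and 12. Slc2a12 (GLUT12) had 3 and 1, Slc2a9, a urate transporter, and Slc2a10 (GLUT10) had vehicle peaks alone, and Slc2a8 (GLUT8) had 2 entacapone peaks alone. Family 5, sodium-coupled transporters, had 14 and 17 peaks, mostly in Slc5a7 and Slc5a3.

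Ion carriers of bicarbonate, chloride, protons, sodium and calcium held 55 and 60 peaks in 23 and 26 of 51 genes. Those genes were 45.1% and 51.0%, against 40.2% and 49.0% of protein-coding genes. Of the vehicle peaks 41.8% were vehicle-only, against 20.5% over all protein-coding genes. The entacapone-only share was 43.3%, against 43.0%. Slc8a1 alone gave 7 of those 23 vehicle-only peaks. Family 8 had 14 and 11 peaks, where Slc8b1, the mitochondrial sodium-calcium exchanger, had 3 and 2 and Slc8a3 had 2 entacapone peaks alone. Family 12, the cation-chloride cotransporters, had 16 and 14. In it Slc12a2 (NKCC1) had 3 and 4, and Slc12a7 and Slc12a9 had 4 and 3 each. Family 9, sodium-proton exchangers, had 7 and 12, of which Slc9a9, an endosomal exchanger, had 3 and 3. Family 26, anion exchangers, had 9 and 10, with 3 and 5 in the sulfate transporter Slc26a2 and 1 and 2 in Slc26a10, whose peaks also lay in the span of B4galnt1.

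Nucleoside, nucleotide sugar and sugar phosphate carriers held 52 and 65 peaks in 25 and 26 of 39 genes. Those genes were 64.1% (interval 47.2 to 78.8) and 66.7% (49.8 to 80.9), against 40.2% and 49.0% of protein-coding genes. Family 35, which loads nucleotide sugars into the Golgi and endoplasmic reticulum, had 35 and 46, and 30 of its peaks overlapped in each list. Slc35d2 had 3 peaks and Slc35a3, the UDP-N-acetylglucosamine transporter, 2 in the entacapone list alone. Slc29a3, the lysosomal nucleoside transporter ENT3, had 4 and 2, and Slc29a2 (ENT2) and Slc37a4, the glucose-6-phosphate translocase, had vehicle peaks alone.

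Metal carriers held 35 and 44 peaks in 19 and 20 of 32 genes. Those genes were 59.4% and 62.5%, against 40.2% and 49.0% of protein-coding genes. The zinc importers of family 39 had 13 and 17, led by Slc39a10 (4 and 3), Slc39a3 (2 and 4) and Slc39a6 (3 and 3). The zinc exporters of family 30 had 10 and 12, of which Slc30a9 had 2 and 5 and Slc30a1 had 2 and 2. Vitamin, choline and heme carriers held 15 and 23 peaks in 11 and 14 of 19 genes (57.9% and 73.7%). Phosphate, sulfate, urea and carboxylate carriers held 10 and 15 in 5 of 12 genes in each list (41.7%). Over the 10 substrate classes, 8 had more genes with an entacapone peak, 1 had equal numbers and 1 had fewer. Only 4 had more with lists of equal length, and 5 at a fold of 4 or more. The intervals of the ratio of peaks excluded 1 in 2 classes, amino acids and mitochondrial carriers, and held 1.38, the value over all protein-coding genes, in each of the 10.

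Several genes had at least 2 peaks in 1 list and none in the other, 15 toward entacapone and 2 toward vehicle. These were 7.46% (interval 4.24 to 12.0) and 0.995% (0.121 to 3.55) of the 201 SLC genes with a peak, near the 6.64% and 0.568% of protein-coding genes. Of the 15, 6 were among the 24 mitochondrial carriers with a peak. The rest included Slc4a4, the sodium bicarbonate cotransporter NBCe1, Slc17a8, the vesicular glutamate transporter VGLUT3, and Slc66a2, with 2 peaks each. The 2 toward vehicle were Slc25a23 and Slc26a1, a sulfate and oxalate transporter whose peaks also lay in the span of Idua. A further 16 SLC genes had a single entacapone peak and no vehicle peak. The genes with the largest differences toward vehicle were Slc8a1 (11 and 7), then Slc29a3 (4 and 2), Slc26a1 (2 and 0), Slc25a23 (2 and 0), Slc15a2, the peptide transporter PEPT2 (3 and 1), Slc2a12 (3 and 1) and Slc10a7 (3 and 1), the last 6 tied.

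Transporters known for a role in fat or in cells of fat were described from a list of 28 SLC genes. Of these, 18 had a vehicle peak and 21 an entacapone peak, with 28 and 50 peaks, and 7 had no peak in either list. Over all protein-coding genes 40.2% had a vehicle peak and 49.0% an entacapone peak. More entacapone peaks were counted in 16 of the listed genes, equal numbers in 5 and fewer in 0. Over all SLC genes with a peak the corresponding counts were 97 (48.3%), 73 (36.3%) and 31 (15.4%). Over all protein-coding genes with a peak the shares were 55.3%, 29.3% and 15.3%. The list was chosen with earlier results of these data known, so its counts describe the listed genes and cannot stand for fat transporters at large.

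Fuel carriers of the list were mixed. Slc2a1, the basal glucose transporter GLUT1, had 3 peaks in each list, of which 2 overlapped near the gene end. The peak of Slc2a1 without overlap lay near the end in the vehicle list (chr4:119136431-119136533, fold 3.24) and near the start in the entacapone list (chr4:119108815-119108896, fold 4.14). Slc16a7, the monocarboxylate transporter MCT2, had 2 and 5, and Slc27a4, the fatty acid transport protein FATP4, had 2 and 3. No peak lay in Slc27a1 (FATP1), Slc25a20 (carnitine-acylcarnitine carrier), Slc25a1 (citrate carrier), Slc25a10 (dicarboxylate carrier) or Slc22a5 (carnitine transporter).

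Among amino acid carriers, Slc7a10, the transporter ASC-1 of white adipocytes, had 1 and 2. Slc36a2, the transporter PAT2 of brown and beige adipocytes, had 1 peak in each list, far apart and at folds of 2.26 (vehicle) and 1.60 (entacapone). Slc7a5 (LAT1) and Slc38a2 (SNAT2) had 1 and 2 each, Slc1a5 (ASCT2) had 0 and 1, and Slc3a2, the heavy chain 4F2hc that pairs with LAT1, had none.

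Among ion and metal carriers, Slc40a1, the iron exporter ferroportin, had 2 and 3, Slc39a14, a zinc and iron importer, had 1 and 2, and Slc11a1, the macrophage metal transporter, had 2 and 2. Slc20a1 (phosphate) had 1 and 2, Slc29a1 (ENT1) and Slc11a2 (DMT1) had 1 and 1 each, and the manganese exporter Slc30a10 had none.

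The fold of SLC peaks was close to that of other genes within each list. In the vehicle list the median was 3.28 (interval 3.10 to 3.51), against 3.21 for all protein-coding genes, with a range of 1.70 to 14.3. In the entacapone list it was 3.10 (2.97 to 3.25), against 2.95, with a range of 1.55 to 13.9. A fold of 4 or more was given to 119 vehicle SLC peaks (34.9%, against 31.7%) and to 132 entacapone SLC peaks (29.3%, against 26.0%). Peaks without overlap were narrower, with median widths of 82 bp (vehicle-only) and 80 bp (entacapone-only), against 127.5 and 142.5 bp for overlapping SLC peaks. Their median fold was not lower. It was 3.56 for vehicle-only against 3.12 for overlapping vehicle peaks, and 3.10 in both kinds of entacapone peaks.

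**Figure D4:**
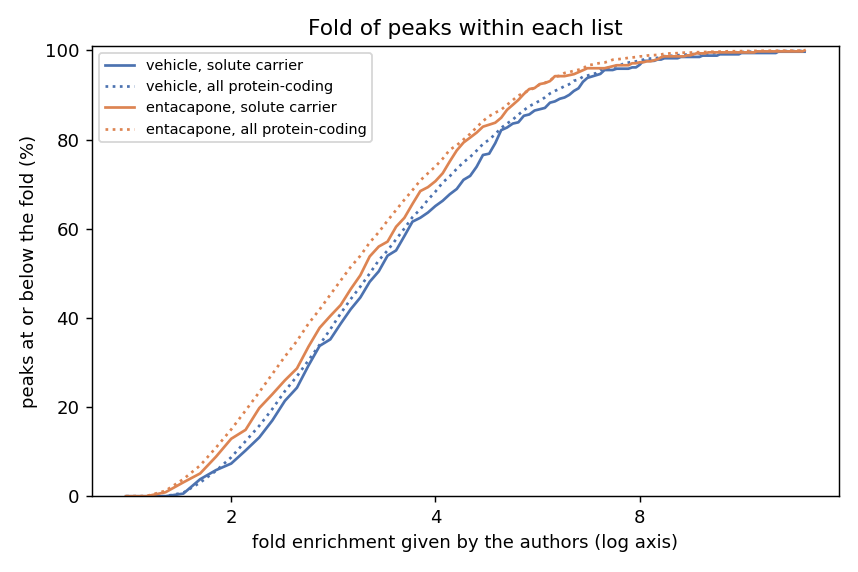
Share of peaks (%) at or below each fold enrichment, on a log axis, for SLC genes (solid) and all protein-coding genes (dotted) in the vehicle and entacapone lists. In each list the SLC curve lies close to the dotted one, with medians of 3.28 against 3.21 and of 3.10 against 2.95.

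The highest folds were found in peaks of both lists for some genes and in 1 list alone for others. In the vehicle list the overlapping peaks of highest fold were in Slc18a1, the vesicular monoamine transporter VMAT1 (14.3), Slc7a13, an aspartate and glutamate transporter (12.7), Slc30a9 (11.3), Slc7a4 (10.5), Slc22a12, the urate transporter URAT1 (9.80), and Slc7a1 (9.16). In the entacapone list they were in Slc45a3 (11.9), Slc1a3 (10.0), Slc7a4 (9.33), Slc24a1, a sodium-calcium-potassium exchanger (8.61), Slc18a1 (8.56) and Slc5a10, a sodium-coupled sugar transporter (8.53). Slc18a1 and Slc7a4 stood among the 6 highest in both lists.

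Among entacapone-only peaks the highest fold was in Slc23a2, the vitamin C transporter SVCT2 (13.9, chr2:132145029-132145083), 264 bp from the gene start, and part of its bases is printed here. Other high folds were in Slc37a2, a sugar phosphate exchanger of macrophages (9.69, 170 bp from the start), Slc12a8 (9.57), Slc41a2, a magnesium transporter (8.16, 232 bp from the start), and Slc25a53 (7.14). In Slc23a2, Slc37a2 and Slc41a2 the peak lay within 1 kb of the gene start. Slc23a2, Slc37a2, Slc41a2 and Slc25a53 each also had a peak found in both lists.

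Among vehicle-only peaks the highest folds were in Slc38a9 (8.66), Slc9a9 (8.10), Slc25a34 (7.93), Slc13a3, a sodium-coupled dicarboxylate transporter (6.90), Slc16a12, a creatine transporter (6.68), and Slc12a8 (6.56). Slc12a8 thus stood in both sets, with its vehicle peak at chr16:33663289-33663349 and its entacapone peak at chr16:33624826-33625052. The vehicle-only peak of Slc9a9 (chr9:94903262-94903329) lay close to an entacapone-only peak of fold 5.30 (94903130 to 94903198).

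Peaks of SLC genes lay toward the ends of the gene, as those of other genes did. The strand was known for 278 of the 362 SLC genes, from RefSeq's table of start sites, which covers 258 vehicle and 316 entacapone peaks. In the vehicle list 23.3% (interval 18.2 to 28.9) lay within 1 kb of the gene's 3′ end, against 17.8% for all protein-coding genes, and 12.0% within 1 kb of the start, against 9.63%. In the entacapone list 21.8% (17.4 to 26.8) lay at the 3′ end, against 17.4%, and 13.9% at the start, against 11.3%. The last 10% of the gene span held 45.0% of vehicle and 43.4% of entacapone SLC peaks, against 36.8% and 35.5%. Spans include introns, and exons were not used here.

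**Figure D5:**
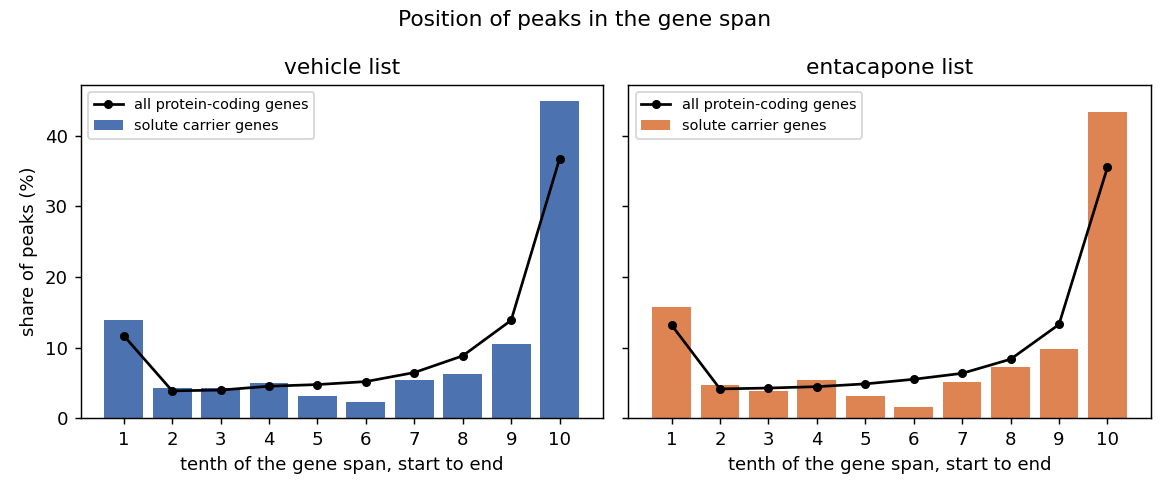
Share of peaks (%) in each 10% of the gene span, from start to end, in SLC genes (bars) and all protein-coding genes (black points) for the vehicle and entacapone lists. The last 10% of the span holds 45.0% and 43.4% of SLC peaks, more than any other 10%.

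Peaks without overlap had lower shares at the 3′ end, though intervals overlapped. The last 10% of the span held 36.8% of vehicle-only SLC peaks and 37.3% of entacapone-only SLC peaks, against 47.9% and 47.4% of overlapping ones. The intervals were 25.4 to 49.3 against 40.6 to 55.2 in the vehicle list and 28.9 to 46.4 against 40.1 to 54.7 in the entacapone list. Over all protein-coding genes the shares were 27.6% and 31.0%, against 39.1% and 39.0% of overlapping peaks. Within 1 kb of the start lay 23 of 126 entacapone-only SLC peaks (18.3%, interval 11.9 to 26.1), against 11.1% of overlapping entacapone SLC peaks (6.97 to 16.4), and the intervals overlap. All protein-coding genes showed 14.4% and 8.95%, the same order. Entacapone-only peaks at the start included those of Slc41a2, Slc23a2, Slc25a42 and Slc2a1, whose bases are printed.

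Many peaks without overlap had a neighbour in the other list. Of the 81 vehicle-only SLC peaks, 70 (86.4%, against 85.6% for all protein-coding genes) lay in a gene with an entacapone peak, and 36 (44.4%) had an entacapone peak within 1000 bp, against 36.3%. Of the 192 entacapone-only SLC peaks, 140 (72.9%, against 71.2%) lay in a gene with a vehicle peak, and 57 (29.7%) had a vehicle peak within 1000 bp, against 26.3%. Gaps of at most 200 bp were found for 15 vehicle-only (18.5%, against 13.6%) and 20 entacapone-only SLC peaks (10.4%, against 8.54%), which included those of Slc8a1 and Slc9a9. A peak without overlap was thus not always a stretch far from peaks of the other library.

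Some SLC peaks could belong to another gene. In the vehicle list 17 and in the entacapone list 23 SLC peaks lay in more than 1 protein-coding span, and 11 and 18 lay in the span of a long noncoding RNA. In 5 and 9 cases the other protein-coding span was the shorter. Without strand in the lists, reads of overlapping genes cannot be told apart.

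Other transporter families are given for comparison. The 50 ABC transporter genes, which pump substrates with ATP, held 33 vehicle and 58 entacapone peaks in 19 and 28 genes (38.0% and 56.0%, against 47.0% and 53.0% of SLC genes). Of their peaks 15.2% were vehicle-only and 51.7% entacapone-only, against 23.8% and 42.7% in SLC genes, and the differences between families were not tested. The 14 Slco genes, organic anion carriers, held 12 and 17 in 4 and 5 genes (28.6% and 35.7%). Peaks in marker genes of the cells of fat tissue are given beside these counts. White adipocyte markers had a vehicle peak in 5 and an entacapone peak in 7 of 10, with 10 and 19 peaks, and Adipoq, Fabp4 and Cebpa had none. The lymph node list had 9 and 18 peaks (4 and 5 of 6 markers), skeletal muscle 7 and 18 (3 of 6 in each), endothelium 2 and 18 (1 and 4 of 4), gland epithelium 5 and 6 (3 and 5 of 5), and macrophages 1 and 1 (1 of 4 in each). Adgre1 and Csf1r of the macrophage list and Acta1 and Ckm of the muscle list had no peak. A peak is not an RNA level, and the part of the mix of cells in the SLC counts was not tested. The input levels of single SLC genes were not analysed here, so more m6A, more RNA and more cells of a type cannot be told apart.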

How the data were processed

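Messenger RNA was fragmented and pulled down with an anti-m6A antibody, per the labels' protocols. TopHat2 2.1.1 and MACS2 were run on mm10, per the submitters' processing notes, which as used here give no threshold. The authors deposited 1 peak list per IP, with an unlabelled number read as a linear fold (ratio), because its commonest values run in equal steps, and raw read counts per gene for the inputs, of which the total was used. Genes came from RefSeq spans (GRCm38.p6). Overlap was at least 1 bp. Of 362 SLC genes, 278 had a start-site window that gives the strand. Scripts used Python 3.11.15, pandas 2.3.3, NumPy 2.4.6 and SciPy 1.17.1, and overlap counting was tested on simulated data. Named genes were those with the most peaks, peaks in 1 list only, the 6 highest folds per list and kind, the largest differences in peak number, the leading genes of families with 10 or more peaks, and the 28 fat-related genes; other genes named as present in 1 list alone were added after their values were seen. Members and lists were chosen with earlier results of these data known. The counts name genes by identifiers that were not matched to symbols here, so the planned input levels were not computed. Of the rules on named genes, that on input calls was not applied. Some genes the rule names are not reported here.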

Additional observations from a re-analysis of the deposited data

How the results depend on the processing

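No paired analysis was possible because each treatment had 1 library, and no replicate could be left out. Of 71 alternative values, 51 stayed within set limits of the main value, 19 moved beyond them and 1 reversed. For numbers of genes or classes the limit was a factor of 1.5, so a value inside it could still change. With widths of at least 100 bp, genes in the entacapone list alone were 41 and in the vehicle list alone 13, both inside it. When both lists were cut to 22860 peaks by fold, the ratio of SLC peaks turned to 0.988, vehicle-only peaks were 40.2%, genes with a vehicle peak alone 28, and classes with more entacapone genes 4; this setting drops entacapone peaks of low fold and nothing from the vehicle list. With both lists kept to a fold of 4 or more the ratio was 1.11, vehicle-only peaks were 56.3% and entacapone-only peaks 61.4%. Genes with a peak were then 88 (vehicle) and 96 (entacapone), and genes with a vehicle peak alone 28. Classes with more entacapone genes were 5, and entacapone peaks near the 3′ end 13.6%. Cuts by fold or length were made in both lists before overlap was counted, so a peak whose partner was dropped counted as without overlap. With both lists kept to a fold of 2 or more, vehicle-only peaks were 28.8% and genes in the vehicle list alone 15. With an overlap of 50% of both peaks, peaks without overlap were 44.0% (vehicle) and 57.6% (entacapone). Within 500 bp in place of 1 kb, 22.6% and 23.6% lay near the nearer end and 12.4% and 11.4% near the 3′ end, fewer because the window is narrower. Giving peaks to the shorter of overlapping genes was added after seeing the data and took no value beyond its limit. The ratio was then 1.31, and genes with a peak were 166 (vehicle) and 188 (entacapone). The cause of the other changes was not tested. Settings on input counts and on the sequence around a peak were not run. Depth limits all counts: a stretch without a peak may hold m6A below the authors' threshold.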
